A study of Homo sapiens with 8 samples.

Results

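The mRNAs of 31 genes of cholesterol and fatty acid synthesis were followed in polysome and input RNA of OCI-AML3, a human cell line established from an acute myeloid leukaemia. The members were taken by gene symbol. They comprised 8 enzymes that lead from acetyl-CoA to isoprenoids, 3 that make squalene and close the sterol ring, 8 that turn lanosterol into cholesterol, 5 regulators of the pathway, 2 sterol handling proteins and 5 enzymes of fatty acid synthesis and desaturation. All 31 were matched among the 58395 genes listed, and all 31 were among the 16503 genes that passed the low-count filter.

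The study compared cells infected with a control hairpin (shCT) with cells infected with a hairpin against FBL (shFBL). FBL encodes fibrillarin, a nucleolar protein that methylates ribosomal RNA. The 8 libraries formed 4 groups of 2: input RNA and polysome RNA from cells with the genotype label WT, and input RNA and polysome RNA from cells with the genotype label FBL knockdown. The titles name the WT libraries CT and the FBL knockdown libraries U, each with the number 1 or 2. These are called labelled control and labelled knockdown here. All groups shared the line and 15 min in cycloheximide (100 µg/mL), a drug that stalls elongating ribosomes on their mRNAs. From each cleared lysate 100 µL was kept as input and 290 µL was spun through a 10% to 50% sucrose gradient that was collected in 14 fractions. Which fractions made up the polysome RNA, the number and sequence of the hairpins, and whether libraries 1 and 2 came from separate cultures are points the sources used here do not give. The p-values therefore rest on a spread between libraries that may not be one between cultures. That spread also holds the difference in FBL between libraries 1 and 2 of each group, given below.

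The targeted gene did not follow the label. FBL was at 250 and 88.1 CPM (counts per M of a library's scaled total) in input labelled control 1 and 2 and at 253 and 84.2 CPM in input labelled knockdown 1 and 2. In polysome RNA it was at 498 and 163 CPM with the control label and at 499 and 165 CPM with the knockdown label. The libraries numbered 2 were thus low in FBL in all 4 groups, and each direction with the label below is a direction between labels, not between measured FBL levels. Gene counts ran from 22.2 to 43.1 M (mega-counts) per library, and mitochondrial ribosomal RNA took 1.25% to 1.52% of them in input RNA and 0.0426% to 0.102% in polysome RNA. Of 10 myeloid markers 6 reached 10 CPM in an input library, with ELANE and SPI1 high, while MPO and KIT stayed under 4 CPM. The T and B cell genes CD3E, CD3D and MS4A1, the erythroid and platelet genes ALAS2, PF4 and GP9, and the epithelial and liver genes EPCAM and TTR were at 0 in every library.

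Cells make cholesterol from acetyl-CoA through mevalonate, farnesyl diphosphate, squalene and lanosterol, and make fatty acids from cytosolic acetyl-CoA that ACLY supplies. The transcription factors SREBP1 and SREBP2, encoded by SREBF1 and SREBF2, are held in the endoplasmic reticulum by SCAP and the INSIG proteins when sterol is plentiful. When sterol falls, SCAP carries them to the Golgi, where they are cleaved and go on to raise transcription of most of the enzymes below. Isoprenoids of the same pathway are attached to small GTPases, and leukaemia cells are known to draw on this pathway. An mRNA bound by several ribosomes moves into the polysome fractions of a gradient, so the ratio of polysome to input RNA describes how much of an mRNA is polysome bound, relative to all other mRNAs.

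Members called higher in polysome than in input RNA with both labels and members called lower with both parted by the base composition of their transcripts. The first 30 codons of 8 of them are shown with the third base of each codon in capitals, since among members called with both labels these have the 4 highest and 4 lowest ratios of polysome to input RNA with the control label. They were read from GENCODE v29 transcripts (GRCh38). The first 4 were called higher in polysome than in input RNA with both labels, and the last 4 were called lower with both. Over the whole coding sequence, G or C filled 71.3% of the third positions in MVK, 64.7% in NSDHL, 69.1% in SREBF2 and 81.3% in MVD. The shares were 37.0% in SC5D, 31.6% in MSMO1, 32.7% in INSIG2 and 33.5% in STARD4. TMEM97, not shown but also called lower with both labels, had 62.7%, near NSDHL.
MVK: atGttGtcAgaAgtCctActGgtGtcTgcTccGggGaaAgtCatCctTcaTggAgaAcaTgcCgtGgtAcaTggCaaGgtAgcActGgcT
NSDHL: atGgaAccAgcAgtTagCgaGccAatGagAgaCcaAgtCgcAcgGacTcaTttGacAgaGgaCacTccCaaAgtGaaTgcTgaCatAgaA
SREBF2: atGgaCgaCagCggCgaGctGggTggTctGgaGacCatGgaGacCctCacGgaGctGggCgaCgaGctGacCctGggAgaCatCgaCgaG
MVD: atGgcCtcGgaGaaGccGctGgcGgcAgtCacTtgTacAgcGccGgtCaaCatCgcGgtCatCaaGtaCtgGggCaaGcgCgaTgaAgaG
SC5D: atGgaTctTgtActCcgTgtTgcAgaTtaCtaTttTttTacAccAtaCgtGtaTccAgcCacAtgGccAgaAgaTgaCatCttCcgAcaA
MSMO1: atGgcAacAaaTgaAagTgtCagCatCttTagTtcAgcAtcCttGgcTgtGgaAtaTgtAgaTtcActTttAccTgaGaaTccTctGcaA
INSIG2: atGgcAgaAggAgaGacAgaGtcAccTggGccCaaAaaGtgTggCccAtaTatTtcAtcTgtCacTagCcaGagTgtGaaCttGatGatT
STARD4: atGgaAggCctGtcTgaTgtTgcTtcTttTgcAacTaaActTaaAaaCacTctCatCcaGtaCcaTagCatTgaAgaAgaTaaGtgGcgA

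The genes lie at chr12:109573255-109598117 on the plus strand (MVK), chrX:152830967-152869729 on the plus strand (NSDHL), chr22:41833079-41907308 on the plus strand (SREBF2), chr16:88651935-88663161 on the minus strand (MVD), chr11:121292453-121308694 on the plus strand (SC5D), chr4:165327623-165343160 on the plus strand (MSMO1), chr2:118088452-118110997 on the plus strand (INSIG2) and chr5:111496033-111512590 on the minus strand (STARD4). In the shown stretch, the third positions held G or C in 14, 13, 27 and 24 of 30 codons for MVK, NSDHL, SREBF2 and MVD. The counts were 10, 9, 14 and 11 of 30 for SC5D, MSMO1, INSIG2 and STARD4. The start of MVK and NSDHL is thus poorer in G and C at the third positions than their coding sequence as a whole, and does not by itself part them from INSIG2.

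Levels in input RNA differed widely between members. Per kilobase of annotated exon, FASN, the fatty acid synthase, was at the top with a mean of 31 CPM per kb over the 4 input libraries (range 27.6 to 33.9). ACLY, which makes cytosolic acetyl-CoA from citrate, followed with 29.3 CPM per kb (28.8 to 29.8), inside the range of FASN. SCD, the desaturase that makes monounsaturated fatty acids, was at 21.2 CPM per kb, PMVK, the phosphomevalonate kinase, at 20.6 and MVD, the mevalonate diphosphate decarboxylase, at 19.2, and their ranges overlapped. The highest regulator was INSIG1, which holds SCAP in the endoplasmic reticulum, with 17.8 CPM per kb (11.9 to 23.4). At the low end were MVK, the mevalonate kinase, with 1.91 CPM per kb, SC5D, the lathosterol oxidase, with 1.6 and FADS2, a desaturase of polyunsaturated fatty acids, with 1.44.

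CYP51A1, the lanosterol demethylase, was listed lowest, at 0.215 CPM per kb and with 15 to 46 reads per library. Overlaps with other genes, added up gene by gene, came to 86.0% of its annotated exon bases. A base shared with several of them counts more than once. A counter that sets aside reads shared by several genes would leave reads from such bases out. By the same sum, overlaps came to 69.7% of exon bases for ACAT2, the cytosolic thiolase that starts the pathway. They came to 41.0% for GGPS1, which makes geranylgeranyl diphosphate. Annotated pseudogenes carry the name of FDPS 8 times, of CYP51A1 3 times, of HSD17B7 and TMEM97 2 times each and of SCD and FADS2 1 time each, and reads may be split between such copies. These 8 members are therefore uncertain in level, and the sources used here do not give the strand setting of the counting. Summed over the 31 members, input RNA held 1771 and 1673 CPM with the control label and 1542 and 1488 CPM with the knockdown label. Polysome RNA held 2354 and 2269 CPM with the control label and 1879 and 1853 CPM with the knockdown label, so the sums did not overlap between labels in either fraction. FASN alone gave 258 to 318 CPM of the input sums and 388 to 598 CPM of the polysome sums.

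**Figure D1:**
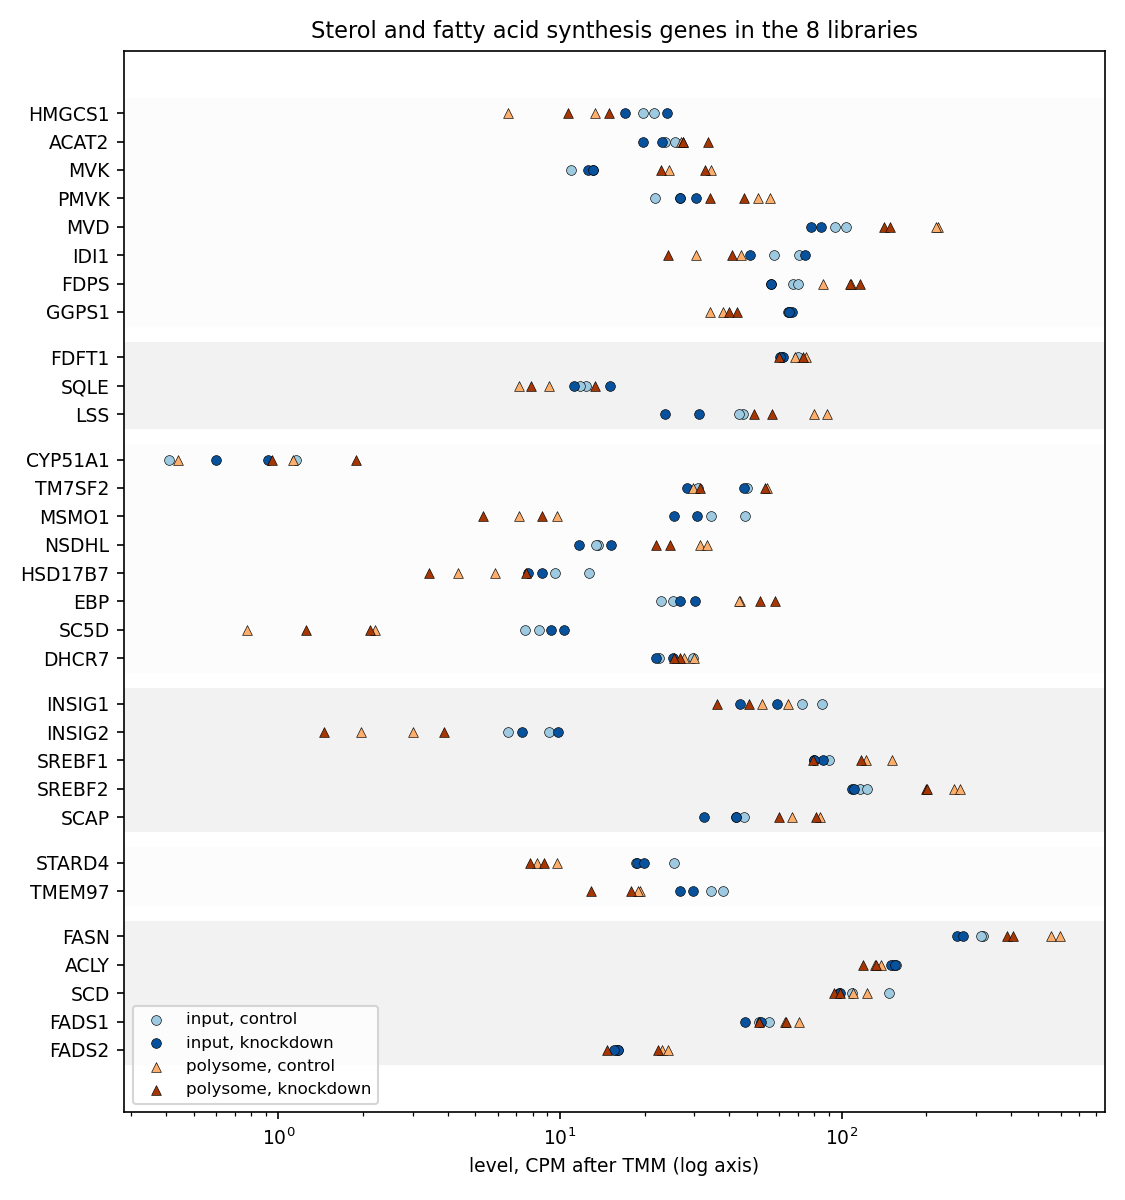
Level of each of the 31 genes in the 8 libraries, in CPM after TMM scaling on a log axis, with circles for input RNA, triangles for polysome RNA and shaded bands for the 6 roles, in the order acetyl-CoA to isoprenoids, squalene and ring closure, lanosterol to cholesterol, regulators, sterol handling and fatty acids. FASN is at the right in all libraries, CYP51A1 is at the left in all but polysome labelled knockdown 2, and the triangles of MSMO1, SC5D and INSIG2 all lie left of their circles.

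Polysome RNA was first compared with input RNA within each label, which asks how the mRNAs of the pathway distribute on ribosomes in these cells. A gene was called where edgeR's quasi-likelihood test gave a Benjamini-Hochberg adjusted p under 0.05 over all 16503 genes. With the control label 18 members were called, against 29.1% of all genes tested: 11 were higher in polysome RNA, against 16.5%, and 7 lower, against 12.7%. With the knockdown label 16 were called, against 28.5%: 9 were higher, against 14.2%, and 7 lower, against 14.3%. Genes at higher levels were called more often. In a fit of the 8194 genes averaging 10 CPM or more, 2337 were called higher and 2294 lower with the control label. The knockdown label gave 2281 and 2137. Of the 27 members in that fit, 19 and 15 were called. The groups of 2 did not overlap for 14 members higher and 12 lower with the control label, against 29.1% and 37.1% of all genes, and for 13 higher and 10 lower with the knockdown label, against 26.0% and 38.6%. Higher with both labels were MVK, MVD, FDPS, LSS, NSDHL, EBP, SREBF2, SCAP and FASN, 9 of 31 members against 12.5% of all genes. Lower with both were GGPS1, MSMO1, SC5D, INSIG2, STARD4 and TMEM97, 6 of 31 against 9.23%. The members' median log2 fold change was 0.13 with the control label, where that over all genes was -0.13, and 0.22 with the knockdown label, where that over all genes was -0.18. Values are relative to all RNA of a library, so less polysome RNA per cell and fewer cells in translation cannot be told apart here.

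**Figure D2:**
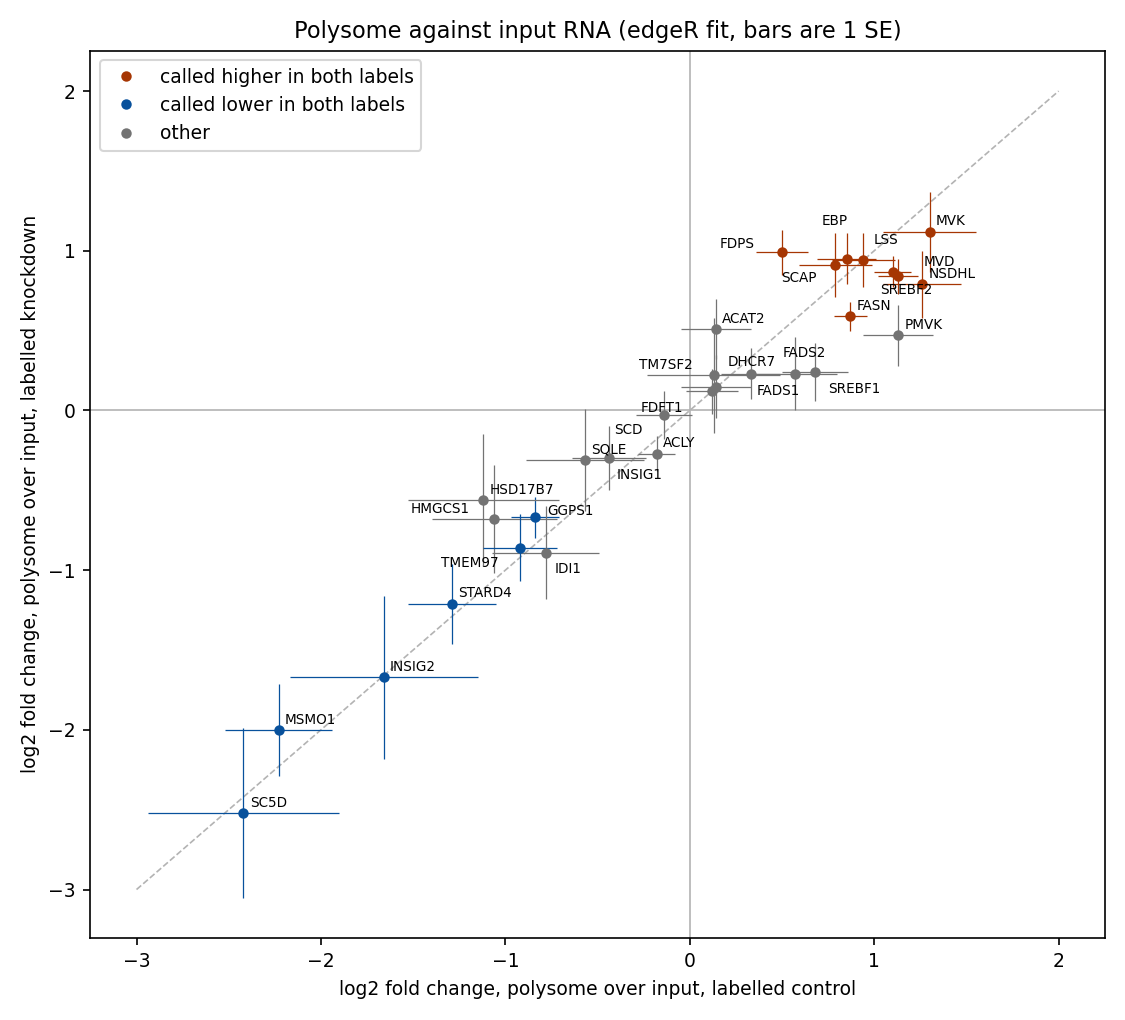
Log2 fold change of polysome over input RNA in the labelled control libraries (horizontal axis) and in the labelled knockdown libraries (vertical axis), with 1 standard error on each side, for 30 of the 31 genes. CYP51A1, with a standard error of 1.1, is left out. The 9 genes in red were called higher and the 6 in blue lower with both labels, and SC5D and MSMO1 lie lowest.

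Among the enzymes from acetyl-CoA to isoprenoids, MVK, MVD and FDPS were higher in polysome RNA with both labels and GGPS1 was lower. MVK was at 10.9 and 13.1 CPM in input and at 34.4 and 24.4 CPM in polysome RNA of the labelled control libraries, and at 12.6 and 13.1 against 22.9 and 32.8 CPM in those labelled knockdown. Every polysome library lay above every input library. The log2 fold change was 1.30 (SE 0.25, adjusted p = 0.0035) with the control label and 1.12 (SE 0.25, adjusted p = 0.0086) with the knockdown label. MVD was at 95.1 and 104 CPM in input and at 220 and 217 CPM in polysome RNA with the control label (log2 1.13, SE 0.11, adjusted p = 5.9e-05). In libraries labelled knockdown it was at 84.5 and 77.8 against 141 and 149 CPM (log2 0.84, SE 0.11, adjusted p = 0.00038). MVD again lay higher in each polysome library than in any input library.

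FDPS, which makes farnesyl diphosphate, was at 67.5 and 69.9 CPM in input and at 108 and 86.2 CPM in polysome RNA with the control label (log2 0.50, SE 0.14, adjusted p = 0.019). In those labelled knockdown it was at 56.0 and 56.3 against 107 and 116 CPM (log2 0.99, SE 0.14, adjusted p = 0.00057). The groups did not overlap with either label. PMVK was called only with the control label, at 21.7 and 26.7 CPM in input and 50.6 and 55.5 CPM in polysome RNA (log2 1.13, SE 0.19, adjusted p = 0.0015). In those labelled knockdown PMVK was at 26.6 and 30.4 against 34.2 and 45.0 CPM. Its log2 fold change with the knockdown label was 0.47 (adjusted p = 0.091, or 0.034 with the lysate as a block), and the test of the difference between labels gave -0.66 (SE 0.27, adjusted p = 0.767). The difference between labels thus did not pass for PMVK.

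GGPS1 sat on the other side. It was at 64.5 and 64.9 CPM in input and at 34.1 and 38.0 CPM in polysome RNA with the control label (log2 -0.84, SE 0.13, adjusted p = 0.0011). With the knockdown label it was at 66.6 and 65.1 against 42.7 and 40 CPM (log2 -0.67, SE 0.13, adjusted p = 0.0044). The input values of GGPS1 differed by less than 3 CPM over all 4 libraries. HMGCS1, the cytosolic HMG-CoA synthase, was called lower with the control label, from 21.6 and 19.7 CPM in input to 13.3 and 6.53 CPM in polysome RNA (log2 -1.06, SE 0.34, adjusted p = 0.042). HMGCS1 was not called with the knockdown label, at 17.0 and 23.9 against 10.7 and 14.9 CPM (log2 -0.68, SE 0.34, adjusted p = 0.169, or 0.051 with the lysate as a block). IDI1, the isopentenyl diphosphate isomerase, was called lower with the knockdown label, from 74.0 and 47.2 to 40.8 and 24.1 CPM (log2 -0.89, SE 0.29, adjusted p = 0.044). With the control label it stood at 70.4 and 57.4 against 43.8 and 30.5 CPM (log2 -0.78, adjusted p = 0.069, or 0.00017 with the lysate as a block). ACAT2 was called with neither label, at log2 0.14 (adjusted p = 0.635) and 0.51 (adjusted p = 0.067).

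Some of these calls were lost when 1 library was left out or another setting was used. The FDPS call with the control label ended without any 1 of input labelled control 1 or 2, input labelled knockdown 1 or 2 or polysome labelled control 1 (log2 0.32 to 0.45, adjusted p from 0.0649 to 0.202). HMGCS1 lost its call without input labelled control 1 (-1.07, adjusted p = 0.112), input labelled control 2 (-1.19, 0.0711) or polysome labelled control 2 (-0.64, 0.2), and when the 4 compared libraries were fitted alone (-1.07, 0.0564). IDI1 lost it without input labelled knockdown 1 (-0.52, 0.313) or polysome labelled knockdown 2 (-0.58, 0.178), with relative log expression scaling (0.0504), limma-voom (0.0551) and the 4 compared libraries alone (0.0859). MVK lost it with the knockdown label without input labelled knockdown 1 (1.12, 0.0559).

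Of the 3 genes for squalene and ring closure only LSS was called. LSS, lanosterol synthase, was at 44.6 and 43.3 CPM in input and 89.0 and 79.8 CPM in polysome RNA with the control label, and at 23.7 and 31.1 against 48.8 and 56.6 CPM with the knockdown label. The log2 fold change was 0.94 with both labels (SE 0.17 each, adjusted p = 0.002 and 0.0023). FDFT1, squalene synthase, was at 0.12 with both labels (adjusted p = 0.591 and 0.606), with overlapping groups. SQLE, the squalene epoxidase that is a rate-limiting step, was at -0.57 (adjusted p = 0.22) and -0.31 (adjusted p = 0.521) from 7.17 to 15.1 CPM.

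The 8 enzymes from lanosterol to cholesterol went both ways. NSDHL and EBP were called higher and MSMO1 and SC5D lower with both labels, while CYP51A1, TM7SF2, HSD17B7 and DHCR7 were called with neither. MSMO1, the methylsterol monooxygenase that takes methyl groups off the sterol ring, was at 45.5 and 34.3 CPM in input and at 7.18 and 9.78 CPM in polysome RNA with the control label, 4.7-fold lower (log2 -2.23, SE 0.29, adjusted p = 0.00031). Libraries labelled knockdown had 30.7 and 25.5 against 8.61 and 5.31 CPM, 4.01-fold lower (log2 -2.00, SE 0.29, adjusted p = 0.00073). NSDHL, the sterol dehydrogenase that acts after MSMO1 in the same demethylation, moved the other way. It was at 13.6 and 13.4 CPM in input and 31.4 and 33.2 CPM in polysome RNA with the control label (log2 1.26, SE 0.21, adjusted p = 0.0013), and at 15.2 and 11.7 against 24.6 and 22 CPM with the knockdown label (log2 0.79, SE 0.21, adjusted p = 0.017). Consecutive enzymes of the pathway thus lay near opposite ends of the members' range.

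SC5D showed the lowest ratio of all members. Input levels were 7.54 and 8.40 CPM with the control label and 10.3 and 9.27 CPM with the knockdown label. Polysome levels were 2.20 and 0.772 CPM, and 2.12 and 1.25 CPM. The log2 fold change was -2.42 (SE 0.52, adjusted p = 0.006) and -2.52 (SE 0.53, adjusted p = 0.0056). The low polysome values rest on few reads, with 26 in the library with fewest. EBP, the sterol isomerase, was at 25.3 and 22.8 CPM in input and 43.6 and 43.3 CPM in polysome RNA with the control label (log2 0.85, SE 0.16, adjusted p = 0.0026). EBP with the knockdown label was at 26.6 and 30.1 against 51.5 and 57.9 CPM (log2 0.95, SE 0.16, adjusted p = 0.0016).

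HSD17B7, the ketoreductase that follows NSDHL, was at -1.12 with the control label (SE 0.41, adjusted p = 0.065), and with the lysate as a block it passed (-1.13, adjusted p = 0.037). It did not pass with the knockdown label, at -0.56 (SE 0.41, adjusted p = 0.341), nor there with the block (-0.66, adjusted p = 0.250). The sterol reductases TM7SF2 and DHCR7 were at 0.13 and 0.14 with the control label and at 0.22 and 0.15 with the knockdown label, all with adjusted p over 0.6. The EBP call with the control label ended without input labelled control 2 (0.71, adjusted p = 0.0518). The NSDHL call with the knockdown label ended without input labelled knockdown 2 (0.62, 0.148) and with the 4 compared libraries fitted alone (0.82, 0.0517).

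Of the 5 regulators, SREBF2 and SCAP were higher and INSIG2 was lower in polysome RNA with both labels. SREBF2 was at 116 and 123 CPM in input and 251 and 263 CPM in polysome RNA with the control label (log2 1.10, SE 0.10, adjusted p = 4.5e-05). The labelled knockdown libraries had 109 and 111 against 200 and 201 CPM (log2 0.87, SE 0.10, adjusted p = 0.0002). The paired libraries of SREBF2 differed by 0.529% to 5.83%, among the closest of the members. SCAP was at 44.9 and 42.2 against 66.6 and 84.2 CPM with the control label (log2 0.79, SE 0.20, adjusted p = 0.012), and at 32.5 and 42.3 against 60.2 and 80.9 CPM with the knockdown label (log2 0.91, SE 0.20, adjusted p = 0.0064). The groups of SCAP did not overlap with either label.

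SREBF1 was called with the control label only, at 90.1 and 79.6 CPM in input and 151 and 122 CPM in polysome RNA (log2 0.68, SE 0.18, adjusted p = 0.018). With the knockdown label it was at 86.2 and 79.7 against 117 and 79.5 CPM (log2 0.24, adjusted p = 0.356), and the difference between labels was -0.44 (SE 0.26, adjusted p = 0.781). The INSIG genes, whose proteins are close relatives, were not alike in level or ratio. INSIG2 was at 6.54 and 9.16 against 1.97 and 3.00 CPM with the control label (log2 -1.66, SE 0.51, adjusted p = 0.033) and at 9.82 and 7.32 against 3.87 and 1.45 CPM with the knockdown label (log2 -1.67, SE 0.51, adjusted p = 0.033). INSIG1 was at 85.3 and 72.2 against 64.3 and 52.1 CPM with the control label (log2 -0.44, adjusted p = 0.135, or 0.013 with the lysate as a block) and at -0.30 (adjusted p = 0.296) with the knockdown label. The difference between INSIG1 and INSIG2 was not tested.

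SCAP lost its call with the control label without input labelled control 1 (0.76, adjusted p = 0.0662), input labelled control 2 (0.68, 0.0969) or polysome labelled control 2 (0.60, 0.0909), and with the knockdown label without input labelled knockdown 1 (0.76, 0.0592). SREBF1 lost it without input labelled control 2 (0.52, 0.13) or polysome labelled control 1 (0.51, 0.128). INSIG2 lost it with the control label without input labelled control 2 (-1.47, 0.149), polysome labelled control 1 (-1.39, 0.156) or polysome labelled control 2 (-2.00, 0.0559). It also lost it with the knockdown label without input labelled knockdown 1 (-1.44, 0.178), input labelled knockdown 2 (-1.87, 0.0669) or polysome labelled knockdown 2 (-1.15, 0.0884), and with the 4 compared libraries alone (-1.65, 0.0754).

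Both sterol handling genes were lower in polysome RNA with both labels. STARD4, a carrier of cholesterol between membranes, was at 18.6 and 25.4 CPM in input and 8.31 and 9.76 CPM in polysome RNA with the control label (log2 -1.29, SE 0.24, adjusted p = 0.003), and at 18.7 and 19.9 against 8.81 and 7.81 CPM with the knockdown label (log2 -1.21, SE 0.25, adjusted p = 0.0047). TMEM97, an endoplasmic reticulum protein known as a sigma receptor that binds sterols, was at 37.8 and 34.4 against 19.3 and 18.9 CPM with the control label (log2 -0.92, SE 0.20, adjusted p = 0.0069). The libraries labelled knockdown had it at 29.6 and 26.6 against 17.9 and 12.9 CPM (log2 -0.86, SE 0.21, adjusted p = 0.011), and this call ended without input labelled knockdown 1 (-0.76, adjusted p = 0.0825). No polysome library of STARD4 or TMEM97 reached any of their input libraries.

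Of the 5 genes of fatty acid synthesis and desaturation only FASN was called. It was at 318 and 314 CPM in input and 556 and 598 CPM in polysome RNA with the control label (log2 0.87, SE 0.09, adjusted p = 9.6e-05), and at 258 and 271 against 388 and 407 CPM with the knockdown label (log2 0.59, SE 0.09, adjusted p = 0.0011). ACLY was at -0.18 (adjusted p = 0.23) with the control label and at -0.27 (adjusted p = 0.084, or 0.034 with the lysate as a block) with the knockdown label. SCD was at -0.14 and -0.03, FADS1, which acts with FADS2 in making polyunsaturated fatty acids, at 0.33 and 0.23, and FADS2 at 0.57 and 0.23, none with an adjusted p under 0.09.

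Base composition ran with the ratio. The 9 members higher with both labels had transcripts with 50.5% to 65.6% G and C (median 58.3%), and the 6 lower with both had 34.2% to 45.8% (median 38.4%), so these ranges did not overlap. Their coding sequences were 693 to 7536 bases long in the first set and 531 to 903 bases in the second, and the median 3′ untranslated region was 613 against 1733 bases. The 16 other members had transcripts with 40.2% to 64.7% G and C (median 49.4%), which reached into the GC ranges of both sets. Over the 31 members the log2 ratio of polysome to input RNA correlated with transcript GC at a Pearson r of 0.84 (Spearman 0.85) with the control label and 0.75 (0.74) with the knockdown label. The points are genes of the same libraries and are no replicates, so no p is given. The correlation was also positive outside the pathway: over all 13053 coding genes tested, r was 0.37 (0.58) and 0.30 (0.53), and over the 7900 of them averaging 10 CPM or more it was 0.69 (0.72) and 0.65 (0.68), where the 27 members at that level gave 0.84 (0.81) and 0.79 (0.74). Among members the ratio had an r of 0.43 with coding length under both labels, of -0.25 and -0.34 with the length of the 3′ untranslated region and of 0.09 and 0.06 with that of the whole transcript. The part of base composition in the differences named above was not tested.

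Members were also set beside coding genes of like GC. For each member the ratio was placed among coding genes averaging 10 CPM or more with a GC content within 2 percentage points. With the control label 14 members lay between the quartiles of these genes, 7 above and 10 below. With the knockdown label there were 12 between them, 9 above and 10 below. By definition as many of the like genes lie outside their quartiles as between them, and the members' counts were not far from that. A place outside the quartiles is thus common among coding genes. FASN, at 0.87 with the control label where like genes had a median of 0.86, lay between the quartiles, and SREBF1 did so with the control label, at 0.68, but not with the knockdown label, at 0.24 beside a lower quartile of 0.35. NSDHL was at 1.26 where like genes had a median of 0.16 and an upper quartile of 0.53. SC5D was at -2.42 where like genes had a median of -0.66 and a lower quartile of -1.05, and MSMO1 at -2.23 where they had -0.68 and -1.07. TM7SF2, at 0.13 beside a median of 0.77, and DHCR7, at 0.14 beside 0.66, lay under the lower quartile although their transcripts are rich in G and C. The values named here are with the control label unless stated, and these placements carry no test. SC5D, INSIG2, HSD17B7 and CYP51A1 are themselves under a mean of 10 CPM.

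**Figure D3:**
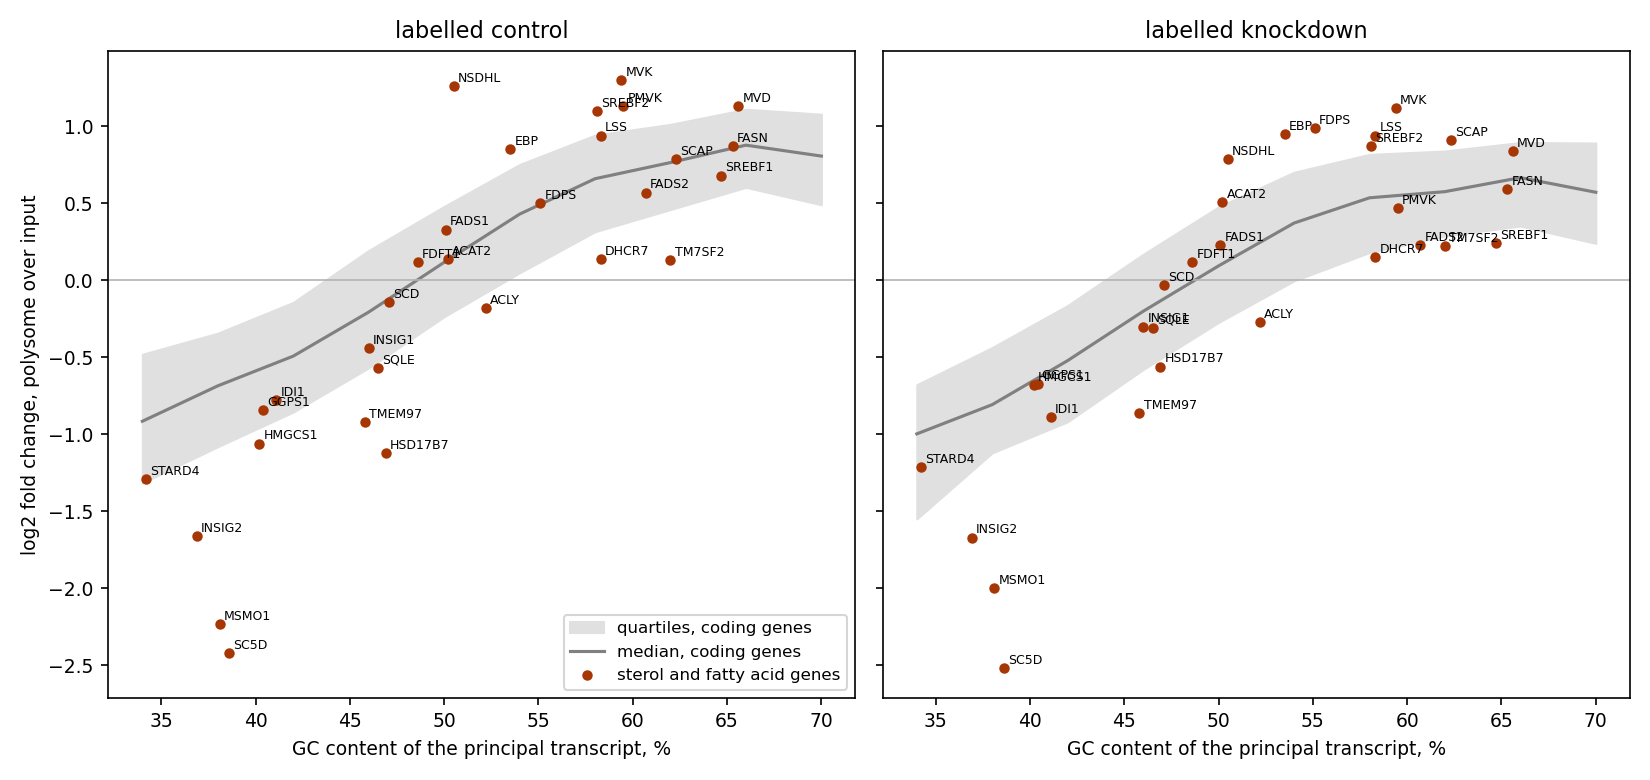
Log2 fold change of polysome over input RNA against the GC content of the principal transcript, in percent, for 30 of the 31 genes (CYP51A1 is left out), with the labelled control libraries in the left panel and the labelled knockdown libraries in the right. The line and band give the median and quartiles of coding genes averaging 10 CPM or more. NSDHL and MVK lie above the band, SC5D, MSMO1 and INSIG2 below it, in both panels.

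The comparison between labels asks whether the mRNAs of the pathway differ between libraries labelled knockdown and libraries labelled control, whose FBL counts were nearly the same. In input RNA no member was called, and 0.0% of all genes were. At an unadjusted p under 0.05 there were 5 members and 744 genes, and DESeq2 called 1 member, LSS, lower, among 37 genes higher and 28 lower. The members' log2 fold changes (labelled knockdown over labelled control) ran from -0.68 to 0.30, 24 below and 7 above 0, with a median of -0.10 where that of all genes was 0.00. Groups did not overlap for 11 members lower with the knockdown label, against 20.3% of all genes, and for 3 higher, against 21.1%. LSS had the lowest value, from 44.6 and 43.3 to 23.7 and 31.1 CPM (log2 -0.68, SE 0.17, adjusted p = 0.682). INSIG1 followed, from 85.3 and 72.2 to 59.1 and 43.5 CPM (log2 -0.62, SE 0.20, adjusted p = 0.849).

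In polysome RNA 2 members were called, against 0.879% of all genes. Both were lower with the knockdown label, against 0.63% of all genes, and none was higher, against 0.248%. FASN was at 556 and 598 CPM with the control label and 388 and 407 CPM with the knockdown label, 1.45-fold lower (log2 -0.54, SE 0.09, adjusted p = 0.036). MVD was at 220 and 217 against 141 and 149 CPM, 1.51-fold lower (log2 -0.59, SE 0.11, adjusted p = 0.041). The groups did not overlap for either gene. Both calls were lost with relative log expression scaling (adjusted p = 0.0519 for FASN and 0.0582 for MVD), upper quartile scaling (0.0651 and 0.0666) and the polysome libraries fitted alone (0.298 for both). Both were also lost without any 1 library other than polysome labelled knockdown 1, with log2 values from -0.59 to -0.47 for FASN and from -0.63 to -0.52 for MVD and adjusted p from 0.0577 to 0.13. Over all genes the split of calls moved with the scaling, from 41 higher and 104 lower to 53 and 48 with upper quartile and 47 and 76 with relative log expression.

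Other members had lower values in polysome RNA with the knockdown label that did not pass in this fit. LSS was at 89.0 and 79.8 against 48.8 and 56.6 CPM (log2 -0.68, SE 0.17, adjusted p = 0.083), the same size as in input RNA. SREBF2 was at 251 and 263 against 200 and 201 CPM (log2 -0.36, SE 0.10, adjusted p = 0.105). INSIG1 was at -0.48 (adjusted p = 0.244), SREBF1 at -0.47 (0.215), NSDHL at -0.47 (0.26) and PMVK at -0.42 (0.276), each with groups that did not overlap. In all, groups did not overlap for 12 members lower, against 23.6% of all genes, and 3 higher (ACAT2, GGPS1 and EBP), against 15.4%. The median over members was -0.12, with 20 below 0, where that over all genes was -0.06. MVD, LSS, INSIG1, SREBF2, FASN, SCD and TMEM97 were lower with the knockdown label without overlap in both fractions, 7 of 31 members against 8.19% of all genes. The shares without overlap, here and in input RNA, are over tested genes of any level. None was taken over genes at levels like those of the members. The input and polysome libraries of a label come from the same lysates, so the fractions are not independent here. Over the 31 members the difference between labels ran with transcript GC in polysome RNA (Pearson r -0.48, Spearman -0.43) and hardly in input RNA (-0.05 and -0.08), where all 13053 coding genes tested gave -0.02 and 0.02 (Pearson). Restricted to an average of 10 CPM or more, the 27 members gave -0.38 and 0.11 and the 7900 coding genes -0.10 and 0.02. The part of base composition in these differences was not tested.

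**Figure D4:**
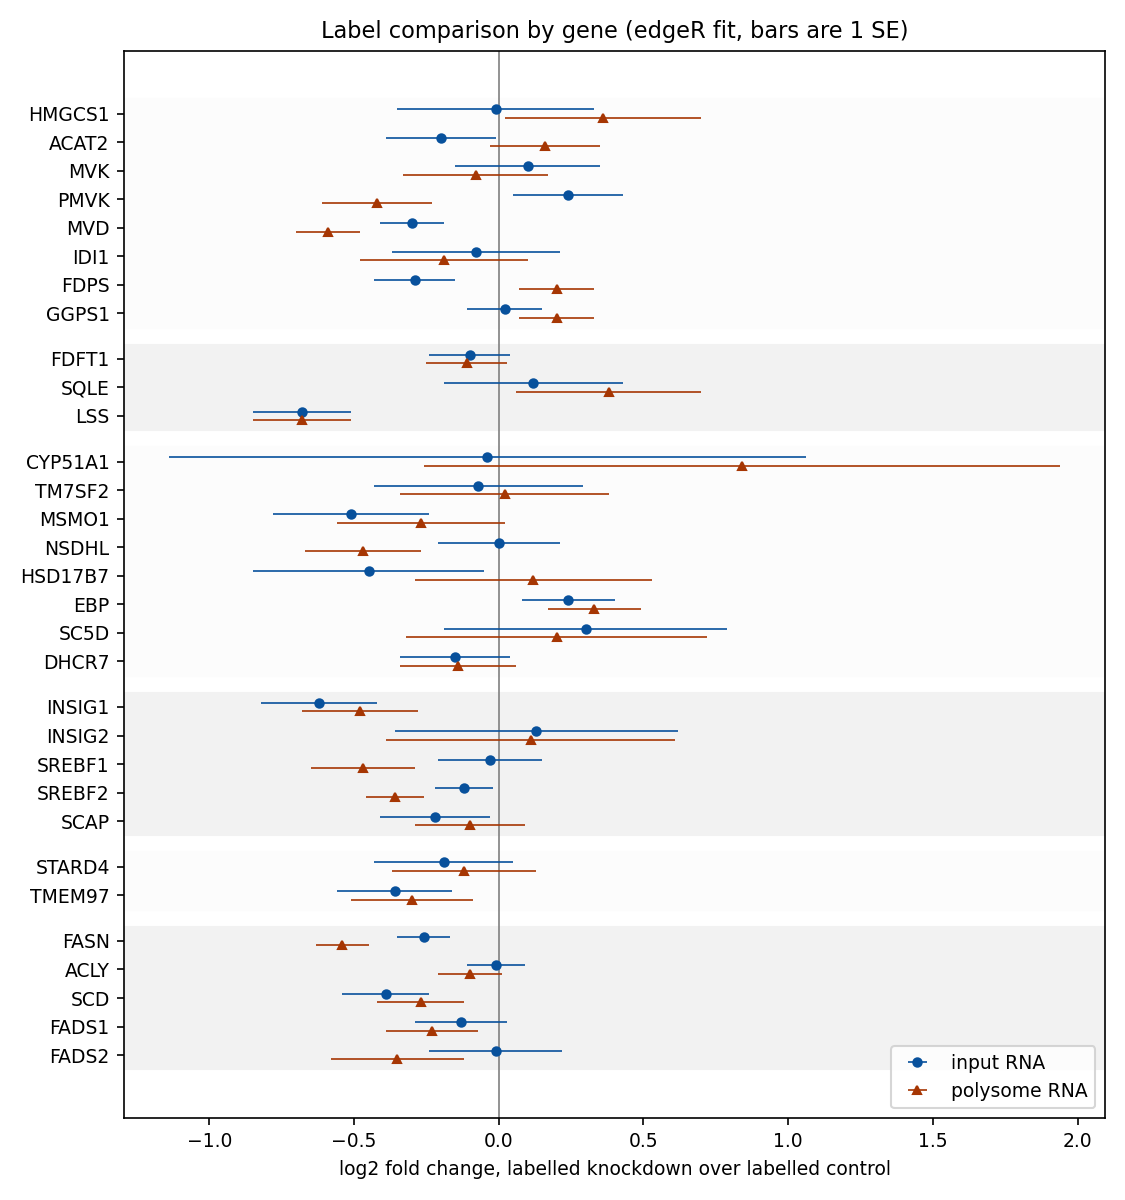
Log2 fold change of the labelled knockdown over the labelled control libraries for the 31 genes in input RNA (circles) and in polysome RNA (triangles), with 1 standard error on each side and the roles in the same order as in the plot of levels. LSS lies at -0.68 in both fractions, and FASN and MVD are the only genes called, in polysome RNA.

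The difference of these differences asks whether polysome association itself differed between labels. No member passed, nor did any gene (0.0%), with 2 members and 1046 genes at an unadjusted p under 0.05 and DESeq2 called none of the members and 4 genes, all lower. The 2 members were PMVK, at -0.66 (SE 0.27), and FDPS, at 0.49 (SE 0.19), both with an adjusted p of 0.767, the smallest among members. LSS was at 0.00 (SE 0.23), EBP at 0.09 (SE 0.22) and FASN at -0.28 (SE 0.13). With 2 libraries a group and standard errors from 0.13 to 1.55, these values do not show that polysome association was alike with both labels. The median over members was 0.01, where that over all genes was -0.08.

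Since FBL followed the library number and not the label, the members were also set out by number. This is a description with no test, because the number is no group of the study. The library numbered 2 lay below the library numbered 1 in all 4 groups for 9 members, against 12.1% of all genes, and above it in all 4 for 2, against 9.76%. Lower in all 4 were IDI1, FDFT1, SQLE, TM7SF2, DHCR7, INSIG1, SREBF1, TMEM97 and FADS1, and higher in all 4 were PMVK and SREBF2. TM7SF2 was at 46.0 and 30.8 CPM in input labelled control 1 and 2, 44.9 and 28.3 in input labelled knockdown, 54.5 and 29.6 in polysome labelled control and 53.7 and 31.4 in polysome labelled knockdown. The change from library 1 to library 2 of TM7SF2 was -45.7% to -33.1%, where that of FBL was -67.2% to -64.8%. It was -40.9% to -18.5% for IDI1, -26.4% to -15.4% for INSIG1 and -31.8% to -7.54% for SREBF1. FASN differed by at most 7.39% between the libraries of a group and had no common direction. The counts of 9 lower members and of 7 members lower with the knockdown label in both fractions were the same with relative log expression, upper quartile and total-count scaling, while the higher members numbered 2, 2 and 3.

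**Figure D5:**
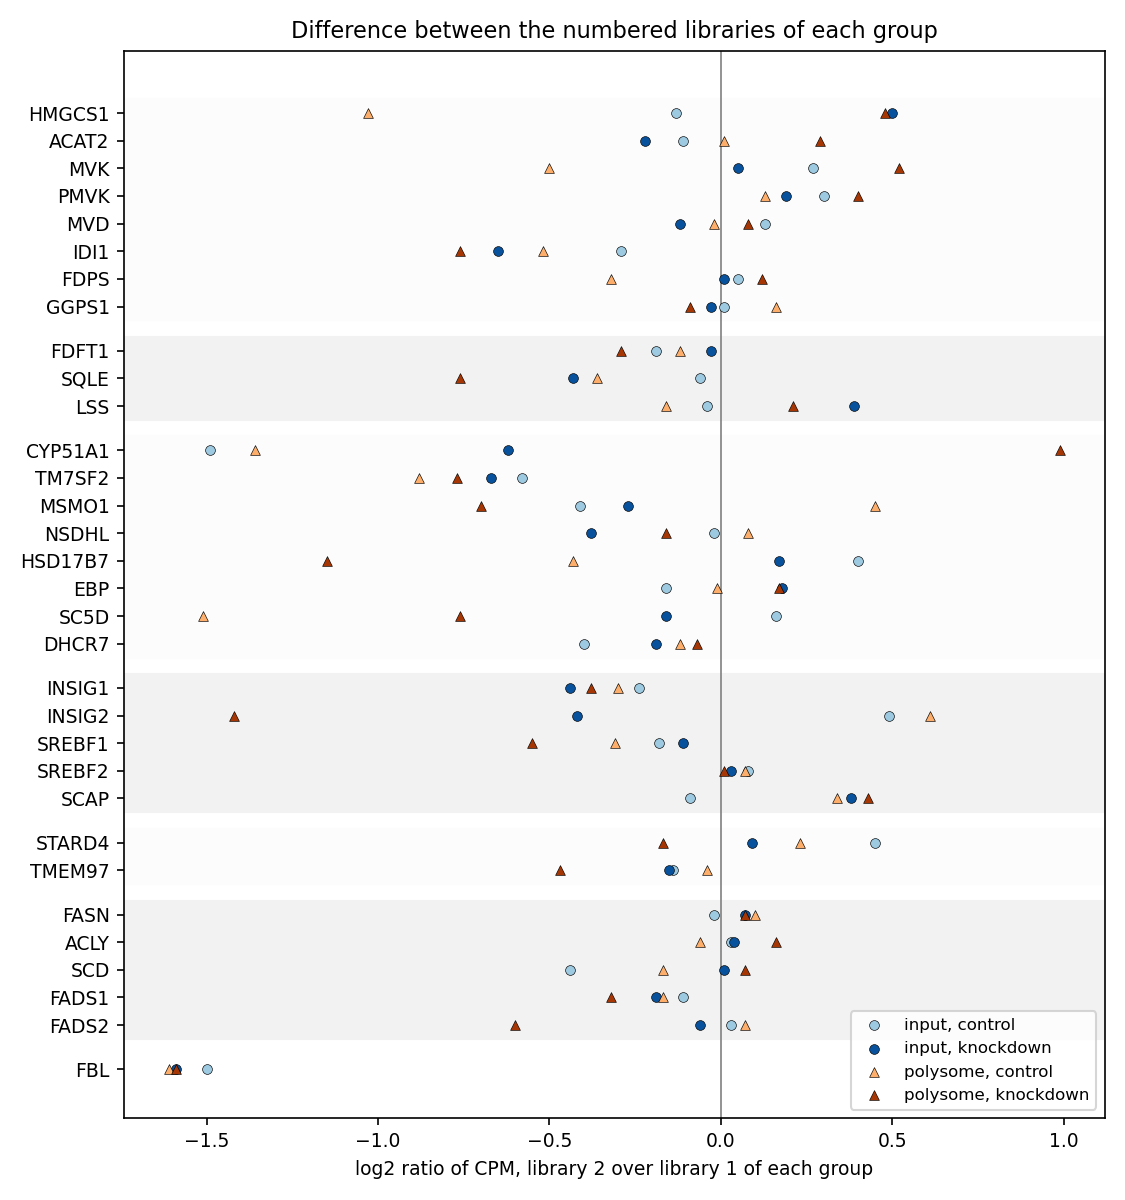
Log2 ratio of CPM of library 2 over library 1 in each of the 4 groups, for the 31 genes and for FBL at the bottom. FBL lies between -1.61 and -1.5 in all groups, TM7SF2 between -0.88 and -0.58, and the ratios of SREBF2, MVD and ACLY lie within 0.16 of 0.

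Promoters were examined because SREBP acts through the sterol regulatory element. RefSeq windows of 250 bases before the transcript start (GRCh38.p14) were matched for 27 of 31 members. The element searched was TCACNCCAC on both strands. It was found in 1 of the 27, SREBF2 (3.7%), and in 1.13% of 11424 promoters of tested genes. It lies 133 bases before the start of SREBF2, whose own transcription is known to respond to SREBP2. The stretch chr22:41832932-41833020 on the plus strand is shown with the element in capitals.
SREBF2: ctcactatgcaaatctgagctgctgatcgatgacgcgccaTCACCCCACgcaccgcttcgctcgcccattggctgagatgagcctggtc

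A CCAAT box (CCAAT, either strand), the site of NF-Y, a known partner of SREBP, was found in 20 of the 27 (74.1%), against 40.9% of promoters of tested genes. A GC box (GGGCGG, either strand), a site of SP1, was found in 26 of 27 (96.3%), against 72.8%. Of the 4 genes with the highest polysome ratios among members called with both labels, MVK and NSDHL held 5 matches to CCAAT each, MVD 3 and SREBF2 1. PMVK, called with the control label only at log2 1.13, held 0. Of the 4 with the lowest, MSMO1 held 4, STARD4 2, SC5D 1 in each of its windows and INSIG2 0. Whether these matches are related to the polysome ratio was not tested. NSDHL was the only one of the 27 with no GC box match. Motifs were counted apart, so matches may overlap, a match is a description of the letters in this window, and enzymes without a match to the sterol element may carry it in other letters or elsewhere.

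Genes around the pathway were taken as 5 lists. None of their 55 genes was called with the label in either fraction or for the difference of differences. In polysome against input RNA with the control label, where 16.5% of all genes were called higher and 12.7% lower, 2 of 10 SREBP processing genes were called higher and 3 lower, with MBTPS1, the site protease that makes the initial cut in SREBP, at log2 0.83 (SE 0.13, adjusted p = 0.0011) and RNF139, a ligase of the endoplasmic reticulum, at -1.33 (SE 0.19, adjusted p = 0.00056). Of 12 genes that use isoprenoids 2 were higher and 5 lower. DHDDS, which makes dolichol precursors, was at 0.90 (SE 0.17, adjusted p = 0.0027), and RABGGTB, the catalytic subunit that attaches geranylgeranyl groups to Rab proteins, was at -2.58 (SE 0.20, adjusted p = 3e-05), from 48.6 and 56.0 to 7.79 and 9.76 CPM. Of 8 genes of sterol efflux 3 were higher and 0 lower, with the sterol receptor NR1H2 at 0.95 (SE 0.25, adjusted p = 0.016). Of 10 genes of sterol esterification and transport 2 were higher and 3 lower, with the sterol carrier STARD3 at 0.72 (SE 0.20, adjusted p = 0.022) and NCEH1, a cholesterol ester hydrolase, at -1.66 (SE 0.42, adjusted p = 0.014). Of 15 acyl-CoA and elongation genes 3 were higher and 6 lower, with SLC25A1, the citrate carrier that feeds ACLY, at 0.86 (SE 0.10, adjusted p = 0.00013) and ACSL3, an acyl-CoA synthetase, at -2.20 (SE 0.38, adjusted p = 0.0017). The median log2 ratios of the 5 lists were -0.66, -0.52, 0.18, -0.32 and -0.19, beside -0.13 for all genes.

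With the knockdown label, where 14.2% of all genes were called higher and 14.3% lower, the counts were 1 higher and 4 lower of SREBP processing, 1 and 4 of isoprenoid use, 3 and 1 of efflux, 1 and 2 of esterification and transport and 3 and 7 of acyl-CoA and elongation. MBTPS1 was at 0.62 (SE 0.13, adjusted p = 0.0063) and RNF139 at -1.06 (SE 0.19, adjusted p = 0.0025). RABGGTB was at -1.63 (SE 0.19, adjusted p = 0.00025). MYLIP, a ligase induced by sterol, was at -1.17 (SE 0.28, adjusted p = 0.012), LIPA, the lysosomal acid lipase, at -1.65 (SE 0.30, adjusted p = 0.0025) and HSD17B12, a ketoreductase of fatty acid elongation, at -2.08 (SE 0.21, adjusted p = 0.00011). DHDDS was at 1.07 (SE 0.17, adjusted p = 0.0012), NR1H2 at 0.80 (SE 0.25, adjusted p = 0.034), GRAMD1A, a sterol carrier, at 0.68 (SE 0.14, adjusted p = 0.0053) and SLC25A1 at 0.80 (SE 0.10, adjusted p = 0.00026). Whether these lists differed from the 31 members was not tested.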

How the data were processed

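The 8 libraries hold raw read counts per gene, deposited by the authors, who made them with Trimmomatic 0.38, Bowtie2 and HTSeq 0.11.2 on GRCh38, per the submitters' processing notes. The sources used here do not give the annotation release, the strand setting or the sequencing layout. Since Bowtie2 aligns without introns, those that cross exon junctions can go missing or land on pseudogenes. Lines that name no gene held 13.2% to 15.0% of reads and were left out.

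Of 58395 gene identifiers 58275 were found in GENCODE v29 and 57754 in a table of current names. Genes passing filterByExpr (16503) were fitted in edgeR 4.0.16 (R 4.3.3) with TMM scaling, a term per group, all 8 libraries and 4 residual degrees of freedom. Quasi-likelihood tests were adjusted by Benjamini-Hochberg over all genes, with a threshold of 0.05. CPM values are after TMM. Libraries of a group differed by a chi-square of 22.8 to 49.7 per degree of freedom over genes, more than counting noise, and each was counted as 1 sample.

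Input and polysome RNA of the same label and number were taken as 1 lysate, since per the labels' protocols each lysate was split. Their deviations from the group means correlated at 0.32 (labelled control) and 0.36 (labelled knockdown) over 8159 genes, beside 0.28 where label and fraction both differed. Same-numbered libraries of different labels, which are different lysates, gave 0.48 in input RNA and 0.20 in polysome RNA. The pairing thus rests on the protocols and not on these correlations. Alternatives were 16 settings: other scalings and filters, DESeq2 1.42.0, limma-voom (limma 3.58.1), the compared libraries alone, a replicate block and each library left out. Members and lists were chosen with earlier results of these data known. All 31 members are named. Those called in a comparison are given in every library, but where over 4 of a role were called only the 2 highest and 2 lowest, with PMVK added. Genes of the other lists are named where they were the highest or lowest called. SREBF2, LSS and INSIG1 in the label comparisons were chosen after their values were seen. GC content, coding starts and lengths come from 1 principal GENCODE v29 transcript per gene (Python 3.11.15), and CPM per kb from the summed exon length.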

Additional observations from a re-analysis of the deposited data

How the results depend on the processing

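Of the 18 members called in polysome against input RNA with the control label and the 16 with the knockdown label, each under up to 16 alternative settings, 268 of 286 and 240 of 254 gene and setting pairs kept their direction and their call, and the others kept their direction. The counts ran from 12 to 21 and from 11 to 19 when 1 library was left out. With the lysate as a replicate block they were 21 and 18, the added genes being HSD17B7, IDI1 and INSIG1 with the control label and PMVK and ACLY with the knockdown label. It ended none of these calls.

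The label comparison in polysome RNA depended most on the processing. Its 2 calls became 0 with relative log expression scaling, 0 with upper quartile scaling, 0 with the compared libraries alone and 4 with DESeq2, and 0 to 3 when 1 library was left out. With the library number as a replicate block there were 6 (FASN, MVD, INSIG1, LSS, SREBF1 and SREBF2). The labels do not say what libraries of 1 number have in common. FBL followed the number in all 4 groups, and the deviations of same-numbered libraries correlated at 0.48 between labels in input RNA and 0.20 in polysome RNA, from 2 libraries a group. In input RNA 0 members became 1 (LSS) with no low-count filter and 1 (LSS) with DESeq2, and stayed 0 with the block. For the difference of differences the count was 0 under all settings run. The cause of these changes was not tested.

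The background over all genes moved too. In polysome RNA between labels, 41 genes higher and 104 lower became 531 and 586 with no low-count filter, 195 and 131 with a mean of at least 10 CPM, 75 and 222 with limma-voom, 342 and 711 with the block, 508 and 695 with DESeq2, 0 and 0 with the compared libraries alone, 392 and 1063 without polysome labelled knockdown 1, and no more than 26 and 53 without any other library. Polysome against input RNA fell to 1748 and 1367 with the control label without input labelled control 1, and to 1572 and 1105 or 1732 and 1396 with the knockdown label without input labelled knockdown 1 or 2. No called member changed direction under any setting. Scaling moved the median of all genes by at most 0.07 on the log2 scale. Depth limits CYP51A1 (15 to 46 reads), SC5D (26 to 433) and INSIG2 (30 to 342), whose standard errors are the widest.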

Other observations

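A few members differed in direction between fractions or from the members' median. FDPS was lower with the knockdown label in input RNA, from 67.5 and 69.9 to 56.0 and 56.3 CPM without overlap (log2 -0.29, SE 0.14, adjusted p = 1), and in polysome RNA it was at 108 and 86.2 against 107 and 116 CPM (log2 0.20, SE 0.13, adjusted p = 0.444). ACAT2 was likewise lower in input RNA without overlap, from 25.6 and 23.6 to 23.0 and 19.7 CPM, and higher in polysome RNA without overlap, from 27.0 and 27.3 to 27.4 and 33.5 CPM. The difference of differences for ACAT2 was 0.37 (SE 0.26, adjusted p = 0.819), and its overlaps with other genes add up to 69.7% of its exon bases. EBP was higher with the knockdown label without overlap in both fractions, at log2 0.24 (adjusted p = 1) and 0.33 (adjusted p = 0.294), as was GGPS1, at 0.02 and 0.20. None of these values passed the test, and the genes were chosen after their values were seen.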
